A study of Macaca mulatta with 24 samples.

Results

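A set of 10 enzymes of glycolysis and of lactate formation was followed across the layers of the lateral geniculate nucleus (LGN), the thalamic relay between retina and visual cortex: HK1, GPI, PFKM, PFKP, ALDOC, TPI1, PGK1, ENO2, PKM and LDHB. Members were the probe sets that the platform annotation assigned to 1 of these symbols alone. This gave 16 probe sets for 7 of 10 genes, among 52766 probe sets other than controls, and all 16 reached a signal of 100 in at least 1 array and entered the tests with 37623 in all. HK1 had 4 probe sets, GPI and PKM 3 each, ALDOC and TPI1 2 each, and PFKP and ENO2 1 each. PFKM, PGK1 and LDHB had no probe set with a single symbol, and 2 probe sets that name PKM or PGK1 together with other genes were not used.

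Glycolysis breaks glucose down to pyruvate in the cytosol, and lactate dehydrogenase interconverts pyruvate and lactate. Hexokinase, phosphofructokinase and pyruvate kinase catalyse its irreversible steps, and the remaining enzymes work near equilibrium in both directions. In brain tissue some isoenzymes mark cell types, with ENO2 best known from neurons and ALDOC from astrocytes.

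The 24 samples came from 2 infant rhesus monkeys whose left eye was deprived of pattern vision from birth. One animal wore an opaque contact lens and was studied after 2 months, and the other was studied after 4 months with the lids closed by tarsorrhaphy. From the 2 LGNs of each animal, the 6 layers were cut out by laser capture without the koniocellular layers, pooled over several sections, amplified in 2 rounds and hybridized to 1 Rhesus Macaque Genome Array per layer. Layers 2, 3 and 5 on the side of the closed or covered eye and layers 1, 4 and 6 on the other side were deprived, which gave 8 deprived and 8 nondeprived parvocellular samples from layers 3 to 6 and 4 deprived and 4 nondeprived magnocellular samples from layers 1 and 2. Every sample came from a deprived animal, so that the nondeprived layers, driven by the open eye, were the only controls here. With 1 animal per duration, the duration, the animal and the method of deprivation cannot be told apart, and the p-values rest on differences among layers within LGNs, not on differences among animals.

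The arrays carried a common scale, and between 40.6% and 57.1% of probe sets reached a signal of 100. Neuronal and thalamic markers were high on all arrays. The lowest values were 20848 for NEFH, a neurofilament subunit, 6781 for THY1 of neurons and 25950 for TCF7L2, a transcription factor of thalamic neurons. Glial markers were high on all arrays too, with at least 27947 for MBP of myelin, and 16653 for GLUL and 2616 for GFAP of astrocytes. One array stood apart, that of the deprived magnocellular layer 2 in the ipsilateral LGN at 2 months. Its ratio of 3' to 5' GAPDH control signals was 50.8 against 1.97 to 14.3 on the others. This ratio measures the loss of signal toward the 5' end, whose cause was not tested. The mean correlation of this array with the other arrays was 0.837 against 0.882 to 0.908.

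All 7 enzymes with a probe set gave clear signals in every layer. For each gene the brightest probe set by mean log2 signal, called the lead, exceeded 100 in 24 of 24 arrays. Signals are linear intensities in arbitrary units, and since probe sets bind with different strength they cannot rank one enzyme against another.

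HK1, the hexokinase that commits glucose to metabolism, had lead signals from 5220 to 9397 with a median of 7633. The GPI lead, for the isomerase that turns glucose 6-phosphate into fructose 6-phosphate, ran from 2908 to 7145 with a median of 4830. PFKP, the platelet type of phosphofructokinase, ran from 5770 to 13410 with a median of 8792. The highest values of these 3 genes came from nondeprived layers.

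ALDOC, the brain type of aldolase, ran from 11423 to 34853 with a median of 21612. TPI1, which interconverts the triose phosphates, ran from 1913 to 7663 with a median of 4341. ENO2, the neuronal enolase, ran from 339 to 1990 with a median of 1435. The lowest ENO2 array was the deprived magnocellular array that stood apart, and the lowest for TPI1 and ALDOC was the ipsilateral layer 2 of the animal studied at 4 months, also deprived. PKM, the pyruvate kinase of brain and muscle, ran from 878 in ipsilateral layer 5 at 4 months, a deprived layer, to 5400.0 in the nondeprived layer 4 of the same LGN, with a median of 1956.

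When the 6 layers were ordered by the mean of a lead, neighbours in that order differed by less than the larger of their 2 SDs over 4 LGNs, for each of the 7 leads. PKM had its lowest mean in layer 5 with 1466 ± 567 (SD, n = 4) and its highest in layer 4 with 3042 ± 1952 (SD, n = 4). GPI was lowest in layer 2 with 3951 ± 975 (SD, n = 4) and highest in layer 3 with 5816 ± 1093 (SD, n = 4). Since each layer number was deprived in 2 of 4 LGNs, these spreads hold both states. Ordering also sets close means side by side, so the comparison of neighbours does not show that layers are alike.

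**Figure D1:**
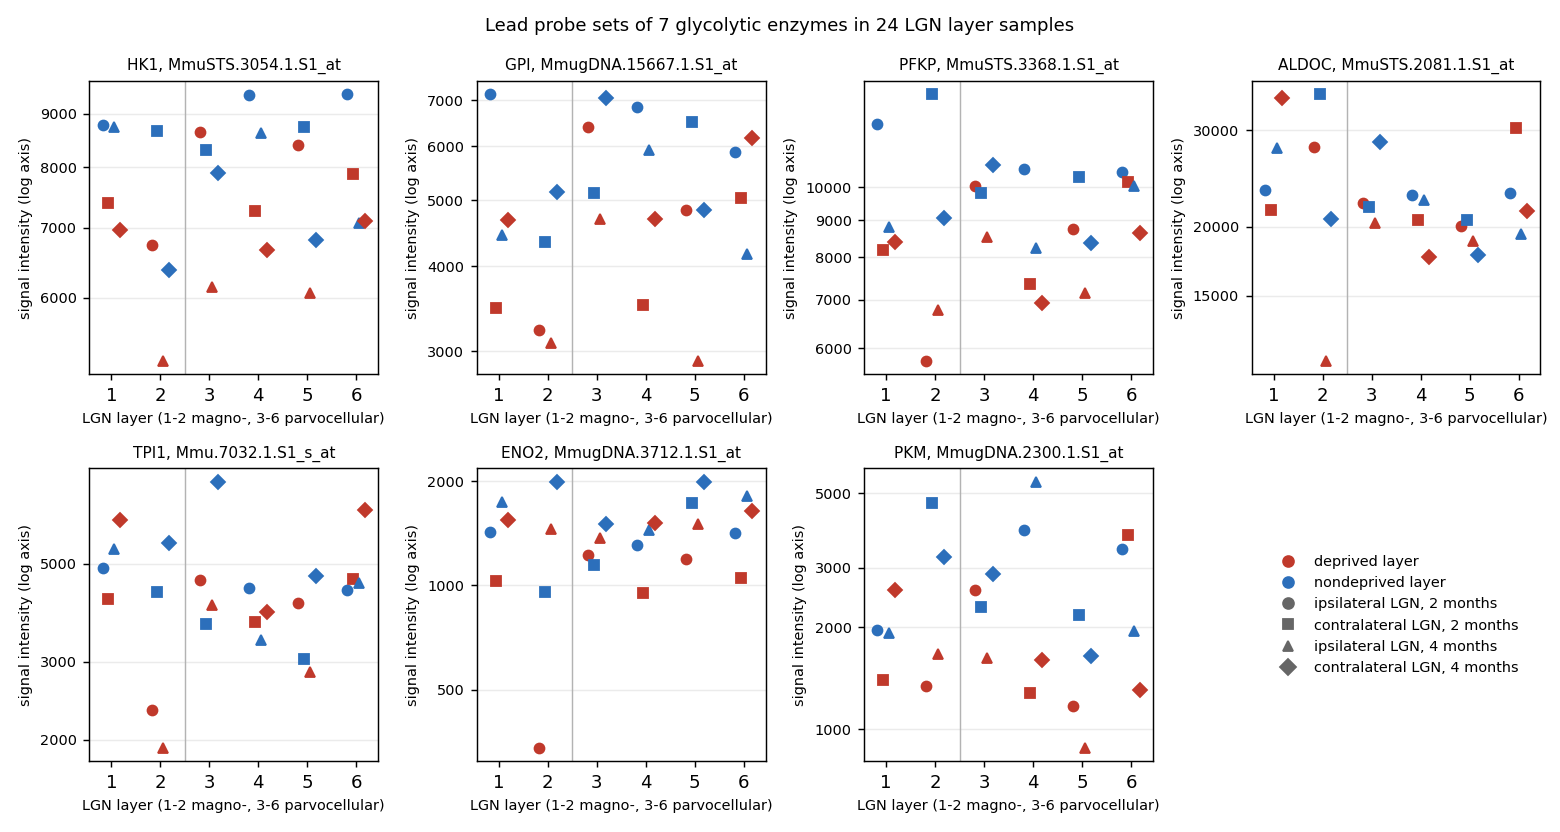
Signal intensity of the lead probe set of each of 7 enzymes (log axis) by LGN layer, 1 point per array; red marks deprived and blue nondeprived layers, and the shape gives the LGN. Deprived points lie mostly below nondeprived ones of the same LGN for GPI, PFKP and PKM, and PKM reaches from 878 to 5400.0.

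The first comparison asked which enzyme transcripts differ between deprived and nondeprived parvocellular layers. One probe set passed, MmugDNA.37076.1.S1_at, which the platform annotation assigns to GPI and which was higher in deprived layers, while the GPI lead and PKM had lower values that did not pass. This probe set hardly varied with the GPI lead (Pearson correlation 0.11 over 24 arrays), and whether it measures GPI transcripts was not tested, so its values are those of the probe set and not of GPI as a gene. In limma on log2 signals with the LGN as a block, 365 of 37623 probe sets (0.97%) had an adjusted p under 0.05, 220 of them higher and 145 lower. Of the 16 member probe sets 1 was higher, beside 0.585% of all, and none was lower, beside 0.385%. Of the 7 leads none passed, beside 1.39% of the 12056 lead probe sets of all single-symbol genes. For no member did the deprived and nondeprived groups lie apart over all LGNs, as 0.165% of all probe sets did.

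The GPI probe set MmugDNA.37076.1.S1_at read 2006, 3048, 2283 and 1395 in the deprived parvocellular layers of the animal studied at 2 months, and 2386, 2849, 3791 and 3526 at 4 months. In nondeprived layers it read 910, 1188, 1060 and 1274 at 2 months, and 1133, 2248, 1149 and 1671 at 4 months. The groups overlapped over all LGNs, but within each of 4 LGNs both deprived layers read above both nondeprived layers, which 0.72% of all probe sets tested did in this direction.

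**Figure D2:**
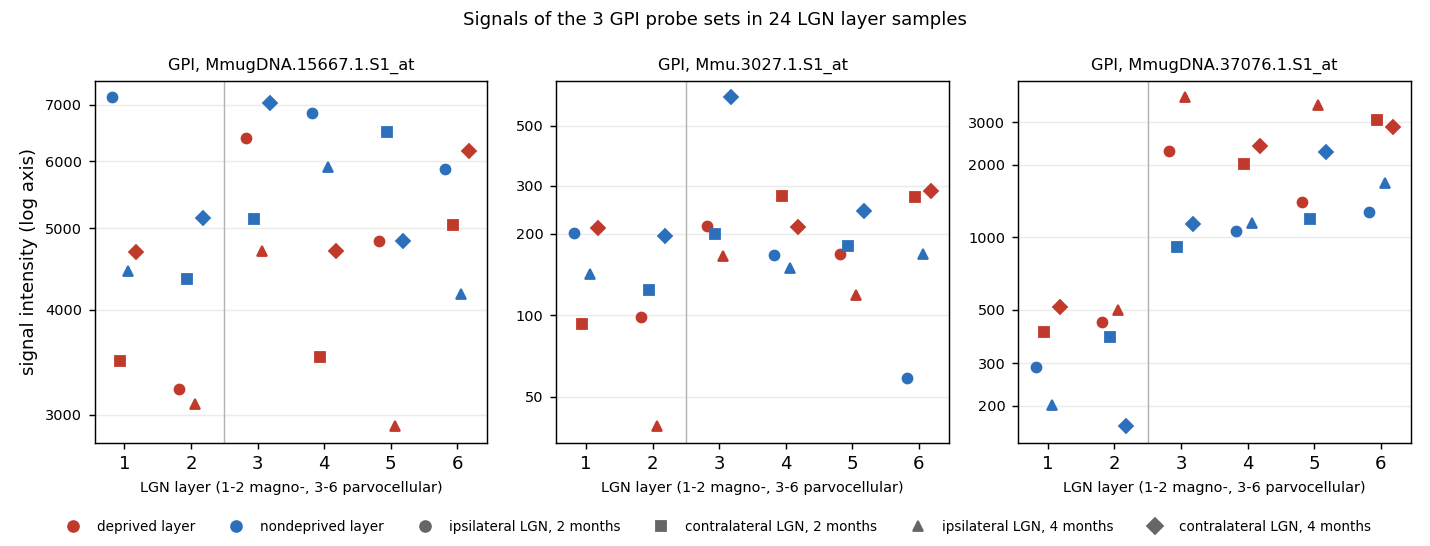
Signal intensity of the 3 GPI probe sets (log axis) by LGN layer, 1 point per array, with deprived layers in red and nondeprived layers in blue and the shape giving the LGN. In the right panel the magnocellular arrays lie between 165 and 516 and the parvocellular arrays between 910 and 3791, with deprived above nondeprived points in each LGN; the left panel shows no such separation.

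Its mean was 2660.4 ± 798 (SD, n = 8) where deprived and 1329 ± 431 (SD, n = 8) where not. The log2 difference was 0.99 (SE 0.17, adjusted p = 0.00746, limma), a 1.99-fold higher signal, and 8 of 8 within-LGN pairs of a deprived with a nondeprived layer had this direction. In such pooled tissue the number of cells of a type and the RNA per cell cannot be told apart, whichever way a signal differs. The call was lost with arrays scaled to the same median (1.02, adjusted p = 0.0702), without a trend in the spread (adjusted p = 0.0823), without the LGN block (adjusted p = 0.0585) and in either animal alone (0.93 at 2 months, adjusted p = 0.196, and 1.05 at 4 months, adjusted p = 0.315; limma), with the same direction each time.

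The GPI lead, MmugDNA.15667.1.S1_at, had a value of the opposite sign that did not pass. It ran from 2908 over a median of 4763 to 6395 in deprived and from 4172 over 5897 to 7047 in nondeprived parvocellular layers, and the groups overlapped. Its log2 difference was -0.30 (SE 0.13, adjusted p = 0.384, limma), with the mean of the deprived layers lower in 4 of 4 LGNs. The remaining GPI probe set had low signals, from 58.8 to 636 in parvocellular layers, and a log2 difference of 0.16 (SE 0.26, adjusted p = 0.897, limma).

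Whether 2 probe sets of a gene part with deprivation was tested on their log2 ratio with a two-sided exact permutation test within LGNs, a test chosen after the values had been seen. Of 14 pairs of probe sets in 5 genes, 1 passed after adjustment over the pairs, and the share among pairs of other genes was not computed. The log2 ratio of the GPI lead to MmugDNA.37076.1.S1_at was lower in deprived layers, by a difference of -1.29 that ranged from -1.83 to -0.81 over the LGNs (exact p = 0.00309, adjusted p = 0.0432). The mean of all 3 GPI probe sets had a log2 difference of 0.28, against -0.30 for the lead, so that the sign for GPI as a gene depends on the probe sets counted.

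PKM forms pyruvate and ATP from phosphoenolpyruvate at the last step. Its lead ran from 878 over 1454 to 3746 in deprived and from 1650 over 2591 to 5400.0 in nondeprived parvocellular layers. The highest deprived value, of contralateral layer 6 at 2 months, lay above the nondeprived median, and the groups overlapped. The log2 difference was -0.78 (SE 0.26, 95% interval -1.33 to -0.24, adjusted p = 0.186, limma), lower in 7 of 8 pairs and in 4 of 4 LGNs. With that array left out it was -0.99 with an adjusted p of 0.034 (limma). Leaving out any of the other 15 arrays gave no pass, with an adjusted p of up to 0.369 (limma).

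The other PKM probe sets had lower values too. One had 251 ± 120 (SD, n = 8) where deprived and 394 ± 122 (SD, n = 8) where not, and a log2 difference of -0.82 (SE 0.32, adjusted p = 0.285, limma). The other, MmugDNA.9984.1.S1_at, had -0.19 (SE 0.20, adjusted p = 0.803, limma). The fold rule of the study needs increase or decrease calls of the array software, which were not used here. A simpler fold rule took a mean ratio of at least 1.7 with 6 of 8 pairs in one direction. By it 2 PKM probe sets were lower and 1 GPI probe set was higher, where 3.44% of all probe sets met this rule.

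The remaining leads had small differences. In the upper pathway, HK1 had a log2 difference of -0.19 (SE 0.08, adjusted p = 0.342) and PFKP one of -0.23 (SE 0.10, adjusted p = 0.342), each lower in 4 of 4 LGNs (limma). In the lower pathway, ENO2, which makes phosphoenolpyruvate, had -0.24 (SE 0.11, adjusted p = 0.403) and was also lower in 4 of 4 LGNs (limma). The share of all probe sets with means in one direction in 4 of 4 LGNs was computed only for deprivation in magnocellular layers. All other such counts in this text stand without it. ALDOC with -0.05 (SE 0.11) and TPI1 with -0.04 (SE 0.14) were near 0, and their 95% intervals ran from -0.28 to 0.18 and from -0.33 to 0.25 (limma).

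The 7 leads thus were all below 0, at a median of -0.23, beside -0.01 over all probe sets tested, of which 51.3% were negative. Of 4294 lead probe sets of single-symbol genes whose mean signal reached 1000, 54.7% were negative and the median was -0.02. When each gene was taken as the mean of its probe sets, 5 of 7 were negative, GPI and TPI1 were positive, and the median was -0.07. The enzymes share arrays and vary together, so these counts are not 7 separate observations, and with the GAPDH ratio as a covariate or at 2 months alone ALDOC and TPI1 were above 0.

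**Figure D3:**
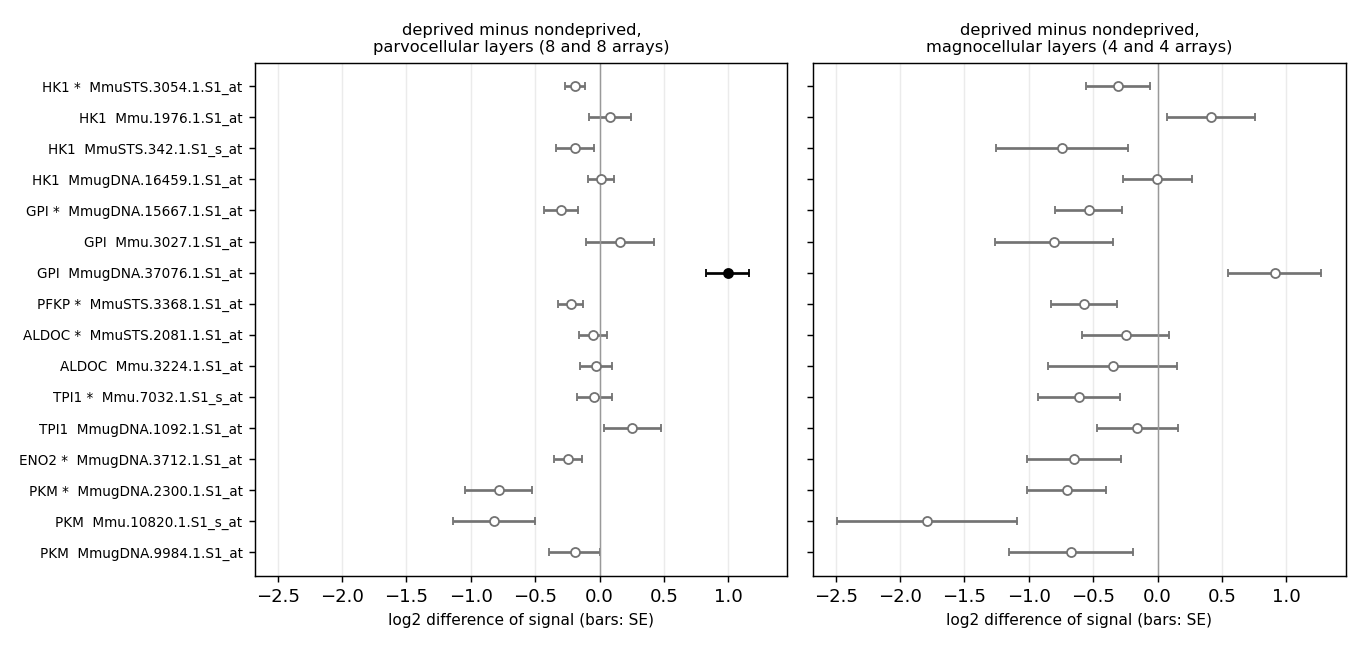
Log2 difference of signal, deprived minus nondeprived, with SE bars for 16 probe sets of 7 enzymes in parvocellular (left) and magnocellular layers (right); stars mark the lead of a gene and filled points an adjusted p under 0.05. The GPI probe set MmugDNA.37076.1.S1_at is the filled point, at 0.99. A low-signal PKM probe set has the lowest value in each panel, -0.82 and -1.79, the latter with deprived signals down to 10.7.

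In magnocellular layers no member passed, and neither did any of 37623 probe sets (0%; 2138 had an unadjusted p under 0.05 in limma). The same GPI probe set had the same direction. MmugDNA.37076.1.S1_at read 406, 446, 499 and 516 in the 4 deprived and 165, 202, 291 and 386 in the 4 nondeprived magnocellular layers. The groups did not overlap, as 2.78% of all probe sets tested did in this direction. The log2 difference was 0.91 (SE 0.36, adjusted p = 0.836, limma). Without the array that stood apart it was 1.01. This probe set also met the simpler fold rule with 4 of 4 pairs, as 6.86% of all probe sets did.

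The GPI lead read 3089, 3223.8, 3476 and 4679.9 in deprived and 4347, 4451, 5143 and 7145 in nondeprived magnocellular layers, with a log2 difference of -0.53 (SE 0.26, adjusted p = 0.836, limma). In the deprived layers 3 of 4 values lay below all nondeprived ones. PKM, with 1344, 1393, 1673 and 2586 in deprived and 1923, 1967, 3223 and 4685 in nondeprived layers, had -0.70 (SE 0.31, adjusted p = 0.836, limma). Both were lower in 4 of 4 LGNs, as was PFKP, so that 3 members were lower in every LGN, beside 4.82% of all probe sets, and 1 was higher in every LGN, beside 10.6%.

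PFKP, which adds the second phosphate before the sugar is split, read 5770, 6785, 8187 and 8414 in deprived and 8821, 9079, 12196 and 13410 in nondeprived magnocellular layers. The groups did not overlap, as 1.29% of all probe sets tested did in this direction. The log2 difference was -0.57 (SE 0.26, adjusted p = 0.836, limma). TPI1 had -0.61 (SE 0.32) and ENO2 -0.65 (SE 0.36), and for both the lowest value came from a deprived layer 2 (limma). Without the array that stood apart, the lowest for ENO2, the ENO2 difference was -0.17 (limma). That of the GPI lead was then -0.33 and that of PFKP -0.40, while that of the PKM lead was not smaller (limma). HK1 with -0.31 (SE 0.25) and ALDOC with -0.25 (SE 0.34) completed 7 negative leads of 7, with a median of -0.57, beside 0.13 over all probe sets tested and -0.10 over the leads of all genes whose mean signal reached 1000.

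The scaling of the arrays moved these medians. Over all probe sets the median difference in magnocellular layers was 0.13 on the deposited scale, -0.01 after quantile normalization and -0.15 with arrays scaled to the same median, and that of the 7 leads was -0.57, -0.49 and -0.85. Relative to all probe sets the leads were lower under each of the 3 scalings. The GAPDH ratio was higher in deprived magnocellular layers, with a median of 8.11 against 4.36, and its part in these values was not tested beyond its use as a covariate.

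The deprivation difference did not differ detectably between layer classes, and no probe set passed (0%; 2540 had an unadjusted p under 0.05, limma). For MmugDNA.37076.1.S1_at the parvocellular minus magnocellular difference of effects was 0.08 (SE 0.35, 95% interval -0.64 to 0.80, adjusted p = 0.977, limma). For the PKM lead it was -0.08 (SE 0.48, 95% interval -1.06 to 0.90, adjusted p = 0.984, limma). The interval for the PKM lead includes differences as large as its deprivation effects, and that for MmugDNA.37076.1.S1_at, which runs to 0.80, stops short of its effects of 0.99 and 0.91.

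Between 4 and 2 months the deprivation difference in parvocellular layers was not detectably different either, and no probe set passed (0%; 1465 had an unadjusted p under 0.05, limma). For MmugDNA.37076.1.S1_at the 4 month minus 2 month difference was 0.12 (SE 0.34, 95% interval -0.59 to 0.83, adjusted p = 0.986, limma), and for the PKM lead -0.47 (SE 0.52, 95% interval -1.56 to 0.62, adjusted p = 0.973, limma). The low GPI probe set had -1.17 (SE 0.47, adjusted p = 0.973, limma). It read 636 in contralateral layer 3 at 4 months, a nondeprived layer, and no other parvocellular array exceeded 288.

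Levels differed between the animals for some enzymes, a comparison of 2 animals with no test. ENO2 had 1145 ± 340 (SD, n = 12 arrays) at 2 months and 1625 ± 211 (SD, n = 12 arrays) at 4 months. The HK1 lead went the other way, with 8301 ± 829 (SD, n = 12 arrays) at 2 months and 6976 ± 1038 (SD, n = 12 arrays) at 4 months, while another HK1 probe set, MmugDNA.16459.1.S1_at, had 3083 ± 556 and 4342 ± 788 (SD, n = 12 arrays each).

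The next comparison asked how the enzymes differ between parvocellular and magnocellular layers, the relays of the fine-detail and the motion-sensitive pathways. MmugDNA.37076.1.S1_at, the probe set whose assignment to GPI was not tested, was 5.32-fold higher in parvocellular layers, an HK1 probe set was lower, and no lead passed. In limma 1355 of 37623 probe sets (3.6%) passed, 846 higher and 509 lower in parvocellular layers. Of 16 member probe sets 1 was higher, beside 2.25% of all, and 1 lower, beside 1.35%, and of 7 leads none passed, beside 5.05% of all leads.

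MmugDNA.37076.1.S1_at had 1995 ± 926 (SD, n = 16) in parvocellular and 364 ± 132 (SD, n = 8) in magnocellular layers. The lowest parvocellular array read 910 and the highest magnocellular array 516. The classes thus did not overlap, as 0.0505% of all probe sets tested did in this direction. The log2 difference was 2.41 (SE 0.17, adjusted p = 2.93e-09, limma), and it was higher in 4 of 4 LGNs. Over the 4 groups its order was deprived parvocellular, nondeprived parvocellular, deprived magnocellular and nondeprived magnocellular, and neighbouring groups overlapped only within the parvocellular class.

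The GPI lead had 5286 ± 1184 (SD, n = 16) in parvocellular and 4444 ± 1315 (SD, n = 8) in magnocellular layers, and a log2 difference of 0.26 (SE 0.12, adjusted p = 0.261, limma). The log2 ratio of the lead to MmugDNA.37076.1.S1_at was lower in parvocellular layers, by a difference of -2.15 (exact permutation p = 1.98e-05, the smallest it can give; adjusted p = 0.000276 over 14 pairs). The low GPI probe set had 0.67 (SE 0.25, adjusted p = 0.15, limma), and without ipsilateral layer 6 at 2 months, a nondeprived layer that read 58.8, it had 0.78 with an adjusted p of 0.0401 (limma). It passed with none of the other 23 arrays left out (adjusted p up to 0.307, limma).

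HK1 was measured by 4 probe sets that did not share a direction. A low-signal one had 290.1 ± 57.6 (SD, n = 16) in parvocellular and 461 ± 160 (SD, n = 8) in magnocellular layers, and a log2 difference of -0.60 (SE 0.17, adjusted p = 0.0418, limma). The classes overlapped, since the nondeprived ipsilateral layer 1 at 4 months read 190.0. The call was near the threshold: it was lost without any one of 16 of the 24 arrays (adjusted p from 0.0551 to 0.141, limma), and also without a filter, a trend or the block, with the animal as block, with the GAPDH ratio as a covariate, with scaling to the median and in either animal alone. The HK1 lead had 0.09 (SE 0.08), MmuSTS.342.1.S1_s_at had 0.10 (SE 0.24) and MmugDNA.16459.1.S1_at had -0.24 (SE 0.10, adjusted p = 0.249, limma; without the array that stood apart -0.34, adjusted p = 0.0352).

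**Figure D4:**
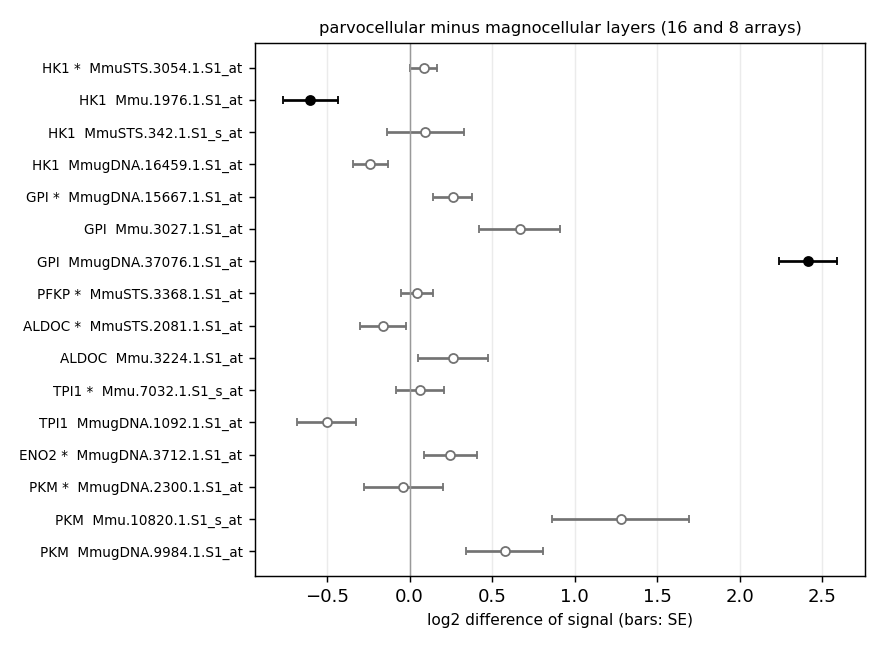
Log2 difference of signal, parvocellular minus magnocellular layers, with SE bars for 16 probe sets of 7 enzymes; stars mark the lead of a gene and filled points an adjusted p under 0.05. The filled points are a low-signal HK1 probe set at -0.60 and GPI MmugDNA.37076.1.S1_at at 2.41, while the 7 leads lie between -0.16 and 0.26.

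For PKM the lead had -0.04 between the classes (SE 0.24, 95% interval -0.53 to 0.45, limma), while a low-signal PKM probe set had 1.28 (SE 0.42, adjusted p = 0.0924, limma). The latter had its 2 lowest values, down to 10.7, in the deprived magnocellular layers at 2 months and its highest, 675, in contralateral layer 1 at 4 months, without which the difference was 1.76 with an adjusted p of 0.00512 (limma). This PKM probe set passed with none of the other 23 arrays left out (adjusted p up to 0.212, limma). TPI1 had 0.06 (SE 0.15) by its lead and -0.50 (SE 0.18, adjusted p = 0.138, limma) by MmugDNA.1092.1.S1_at. ALDOC with -0.16 (SE 0.14), PFKP with 0.04 (SE 0.10) and ENO2 with 0.25 (SE 0.16) lay within their spread (limma). The 7 leads had a median of 0.06, beside -0.03 over all probe sets tested.

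Probe sets of the same gene parted between the layer classes in 6 of 14 pairs by the exact permutation test with adjustment over the pairs. The test was chosen after the values had been seen. Pairs of one gene share probe sets, and the share among pairs of other genes was not computed. Beside the pair with the GPI lead, the low GPI probe set and MmugDNA.37076.1.S1_at parted by -1.75 (exact permutation test, adjusted p = 0.00456). The low-signal PKM probe set and the PKM lead parted by 1.32 (exact permutation test, adjusted p = 0.0134), which became 0.87 with signals under 50 set to 50 (exact permutation test, adjusted p = 0.0234). The others were 2 pairs of HK1, with -0.69 and 0.32 (adjusted p = 0.0234 and 0.0381), and the pair of TPI1, with 0.56 (adjusted p = 0.0381; exact tests).

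Within a layer class, no member and no probe set at all passed between single layers (0% in both comparisons; 3377 had an unadjusted p under 0.05 between outer and inner parvocellular layers and 1142 between layers 1 and 2, limma). Between the outer layers 5 and 6 and the inner layers 3 and 4, ENO2 was 0.22 higher on the log2 scale (SE 0.10, adjusted p = 0.541), in 4 of 4 LGNs (limma). PKM had -0.42 (SE 0.25) and MmugDNA.37076.1.S1_at 0.28 (SE 0.16, adjusted p = 0.605, limma).

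Between magnocellular layers 1 and 2, ALDOC gave the smallest unadjusted p of the members. Its weaker probe set had 10968 ± 5281 (SD, n = 4) in layer 1 and 4482 ± 2594 (SD, n = 4) in layer 2, and a log2 difference of 1.33 (SE 0.31, unadjusted p = 0.00137, adjusted p = 1.00, limma), higher in 4 of 4 LGNs. The ALDOC lead had 0.26 (SE 0.35). TPI1 had 0.67 (SE 0.28, limma), and both low TPI1 values, 1913 and 2329, were from layer 2.

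Probe sets of one gene varied together to unequal degrees. After removal of each LGN's mean, log2 signals of the GPI lead and MmugDNA.37076.1.S1_at had a Pearson correlation of 0.11 over 24 arrays, and 0.01 over 23 without the array that stood apart. The lead and the low GPI probe set had 0.51. The 3 PKM probe sets had 0.24 to 0.59, the ALDOC pair 0.52 and the TPI1 pair 0.10. In HK1 the lead and the probe set that differed between the classes had -0.59, while the latter and MmugDNA.16459.1.S1_at had 0.45 (0.73 over 23 arrays without the one that stood apart), and the other HK1 pairs had from -0.34 to 0.22. These are descriptions over arrays that share LGNs and animals, and low signals lie nearer to the background.

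Leads of different enzymes often varied together. The GPI lead had 0.76 with HK1 and 0.75 with PFKP, and PFKP had 0.72 with TPI1, over 24 arrays after removal of each LGN's mean. The PKM lead had between 0.22 with ENO2 and 0.60 with PFKP. ALDOC and ENO2, the isoenzymes best known from astrocytes and neurons, had -0.25.

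Several of these leads also moved with the GAPDH ratio. The correlation with its log2 value was -0.81 for ENO2, -0.77 for the GPI lead, -0.64 for PFKP, -0.62 for TPI1 and -0.53 for HK1 over 24 arrays, against -0.21 for the PKM lead, -0.31 for MmugDNA.37076.1.S1_at and 0.08 for ALDOC. With the ratio as a covariate, the parvocellular deprivation difference of MmugDNA.37076.1.S1_at was 1.06 (adjusted p = 0.0145, limma). This says nothing of the leads that followed the ratio more closely. Over the alternatives other than leaving out an array, the covariate among them, that difference ran from -0.33 to -0.16 for ENO2. For PFKP it ran from -0.26 to -0.12, and neither gene passed under any of these.

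By likeness over the 24 arrays, again after removal of LGN means and among 14558 single-symbol probe sets, the genes nearest to the GPI lead were AP2S1 (0.91), ADCK1 (0.90), CDK16 (0.89), LOC692338 (0.89) and CSNK2B (0.85). Nearest to the PKM lead were CHCHD10 (0.85), SURF1 (0.84), RNF208 (0.82), USP35 (0.82) and LOC699802 (0.81). The 2 sets of genes had no name in common.

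For MmugDNA.37076.1.S1_at, looked up after its values had been seen, the nearest were SCN3B, a sodium channel subunit (0.95), AGT, angiotensinogen (0.93), RSPO3, a secreted Wnt amplifier (0.92), AGGF1 (0.91) and ADAMTS3 (0.91). Within the 16 parvocellular arrays AGGF1 was first with 0.93, and AGT had 0.82 and rank 45. AGT, made mainly by astrocytes in brain, read 269 to 500.2 in nondeprived and 1010.5 to 1755 in deprived magnocellular layers. In parvocellular layers it read 1897 to 3608 where nondeprived and 3859 to 7052 where deprived.

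In parvocellular layers AGT was 0.83 higher with deprivation (adjusted p = 0.00469, limma) and GFAP 1.07 higher (adjusted p = 0.0184, limma). Thus 2 of 8 measured astrocyte markers passed, beside 1.39% of all leads in either direction. AGT is also among the transcripts that the study lists as raised in deprived magnocellular layers. The lists were chosen with earlier results of these data known, so this count is not independent of those results. The summed signal of the 8 astrocyte markers ran from 63099 to 94896 in deprived and from 55823 to 75106 in nondeprived parvocellular layers, and 7 of 8 had positive values. None of 5 measured neuronal markers passed, and 5 of 5 had negative values, where 51.3% of all probe sets tested were negative. Of the other lists, 9 of 9 microglial markers had positive values at a median of 0.30, as did 2 of 2 measured markers each of GABAergic neurons, oligodendrocytes and blood, 4 of 6 of endothelium and 1 of 2 of relay neurons, and none of these passed (limma). In magnocellular layers no marker passed. Whether a shift in cell types has a part in the values of GPI or PKM was not tested.

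**Figure D5:**
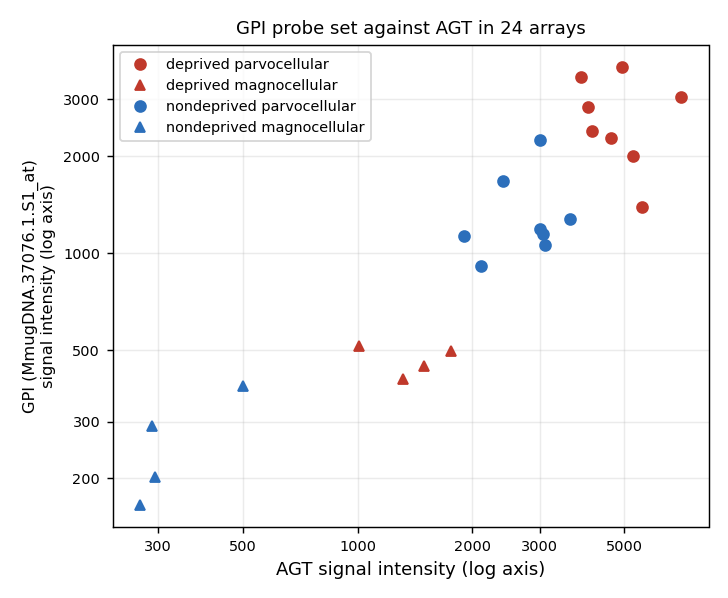
Signal intensity of GPI MmugDNA.37076.1.S1_at against that of AGT (both log axes), 1 point per array; circles are parvocellular and triangles magnocellular layers, red deprived and blue nondeprived. The groups lie apart along AGT, while along the GPI probe set the deprived and nondeprived parvocellular groups overlap. This probe set reads 165 to 386 in nondeprived magnocellular and 1395 to 3791 in deprived parvocellular layers.

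Other genes of glucose metabolism were counted by their leads, beside the shares of all leads given above. With deprivation in parvocellular layers 1 of 50 passed. It was PYGL, a glycogen phosphorylase, with 2791 ± 1050.3 in deprived and 1657 ± 408 in nondeprived layers (SD, n = 8 each) and a log2 difference of 0.71 (SE 0.14, adjusted p = 0.0161, limma). None of 11 other glycolytic isoenzymes passed, and the one with the smallest p, LDHA, which makes lactate, had -0.20 (SE 0.08, adjusted p = 0.342, limma). None of 7 genes of glucose and lactate transport did, with BSG, the partner of the lactate transporters, at -0.36 (SE 0.11, adjusted p = 0.119, limma).

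None of 8 genes of the NADH shuttles passed, with MDH2, a mitochondrial malate dehydrogenase, at -0.38 (SE 0.11, adjusted p = 0.104, limma). None of 7 regulators, 7 genes of pyruvate entry and 4 of the pentose phosphate pathway did; their smallest p belonged to TIGAR with -0.25 (adjusted p = 0.612), PDK3 with -0.30 (adjusted p = 0.652) and TALDO1 with -0.15 (adjusted p = 0.558; limma). In magnocellular layers none of the 50 passed (limma).

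Between the layer classes 5 of the 50 passed, 1 higher and 4 lower in parvocellular layers, beside 5.05% of all leads. DLAT, a subunit of pyruvate dehydrogenase, was 0.68 higher (SE 0.17, adjusted p = 0.0237, limma). The lactate transporter SLC16A1 was lower, with a log2 difference of -0.63 (SE 0.17, adjusted p = 0.0358), as was its partner BSG with -0.47 (SE 0.11, adjusted p = 0.0103; limma). PDK2, a kinase that inhibits pyruvate dehydrogenase, had -0.52 (SE 0.14, adjusted p = 0.0395), and MDH2 had -0.53 (SE 0.11, adjusted p = 0.00524; limma). No gene of these lists passed in the tests of class by deprivation, of duration by deprivation or between single layers.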

How the data were processed

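The authors hybridized 1 array per layer and deposited the signal intensity that GCOS, the array maker's software, computed for each of 52766 probe sets other than controls, with arrays scaled to a common trimmed mean of 500.04. Detection and change calls were not used here, so that the fold rule counted only the direction of each pair. Of these probe sets 24956 had a single gene symbol, 361 several and 27449 none.

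From the deposited intensities, signals under 1 were set to 1 and log2 values were tested with limma 3.58.1 in R 4.3.3 (eBayes with a trend, LGN as a fixed block, Benjamini-Hochberg adjustment over the 37623 probe sets that reached 100 on 1 array or more, threshold 0.05). Figures, correlations and exact permutation tests were made with Python 3.11.15, numpy 2.4.6, pandas 2.3.3, scipy 1.17.1 and matplotlib 3.10.9. The fits were tested on simulated data with larger log2 differences than the deprivation differences reported here, which does not show how well smaller ones are found. Layers of one LGN came from the same animal and hemisphere, which is why the LGN was the block; replicate numbers were given by order only and pair nothing. Each test was two-sided, and the number of arrays and of animals limits the precision.

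Of the 10 members, the 7 with a single-symbol probe set were reported with all their probe sets, some of them described in words, and a gene was counted by its lead. Genes of 7 other lists were named where they passed, otherwise the one with the smallest p. Likeness was the Pearson correlation among single-symbol probe sets whose mean signal reached 100. The members and lists were chosen with earlier results of these data known. The alternatives were quantile normalization, scaling to the median, an offset of 16, a floor of 50, other filters, other blocks, no trend, the GAPDH ratio as a covariate, each animal alone, the fold rule and leaving out each array.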

Additional observations from a re-analysis of the deposited data

Results flagged for a closer look

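The highest or lowest sample stood far from its group, by Dixon's ratio at 95%, in 6 of 32 groups of lead signals and GAPDH ratios tested, where chance flags about 1 in 20. The ALDOC lead read 30330 in deprived contralateral layer 6 at 2 months, against 17612 to 22089 in the other deprived parvocellular layers. The HK1 lead read 6382 in nondeprived contralateral layer 2 at 4 months, against 8667 to 8784 in the other nondeprived magnocellular layers. The TPI1 lead read 6611 in deprived contralateral layer 6 at 4 months, against 2840.3 to 4612, and 7663 in nondeprived contralateral layer 3 at 4 months, against 3050 to 4681 in the parvocellular layers of the same state. The GAPDH ratio was 50.8 in deprived ipsilateral layer 2 at 2 months, against 3.95 to 8.91, and 14.3 in nondeprived contralateral layer 2 at 2 months, against 3.74 to 4.97 in the other magnocellular layers of that state.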

How the results depend on the processing

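Under the alternatives 1541 values were recomputed, for single probe sets, means over the probe sets of a gene and GPI ratios. Of these 1426 kept their direction and side of the threshold or, for gene means, lay within 1 SE of the lead. Another 70 reversed, none with an adjusted p under 0.05 at the main setting, and the rest became weaker (29), stronger (4) or moved (12). Moved were gene means further from the lead, some with a change of sign, such as GPI with deprivation in parvocellular layers (-0.30 to 0.28). The causes were not tested. The count of members called with deprivation in parvocellular layers, 1, was 0 with arrays scaled to the same median, without a trend, with no LGN block and in either animal alone, 3 by the fold rule and 1 to 2 with an array left out. In magnocellular layers it was 1 by the fold rule and 0 to 0 with an array left out. The count between layer classes, 2, was 1 with scaling to the median, no filter, no trend, no block, the animal as block, the GAPDH covariate and in either animal alone, and 1 to 2 with an array left out.

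Reversed values with deprivation in parvocellular layers were, for the weaker ALDOC probe set, 0.015 after quantile normalization, 0.0018 with scaling to the median and 0.063 with the GAPDH covariate. With that covariate TPI1 had 0.12, MmugDNA.16459.1.S1_at of HK1 -0.038, MmugDNA.9984.1.S1_at of PKM 0.016 and the ALDOC lead 0.048. At 2 months alone these had 0.14, -0.015, 0.067 and 0.056, and at 4 months alone the low HK1 probe set had -0.059 and the low GPI one -0.43. In the class by deprivation test the PKM lead had 0.23 with scaling to the median and 0.60 at 2 months alone, and MmugDNA.37076.1.S1_at had -0.42 at 4 months alone. Between classes the ALDOC lead had 0.054 after quantile normalization, and the PKM lead 0.079 with scaling to the median and 0.21 at 2 months alone. With the covariate the weaker ALDOC probe set had -0.057, TPI1 -0.19, ENO2 -0.092 and PFKP -0.10. MmuSTS.342.1.S1_s_at of HK1 had -0.45 at 2 months and ENO2 -0.077 at 4 months. Between outer and inner layers PKM had 0.036 at 2 months.

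With 1 array left out, values that crossed 0 ranged with deprivation in parvocellular layers from -0.12 to 0.067 and from -0.13 to 0.028 for the ALDOC probe sets, from -0.053 to 0.36 for the low GPI probe set, from -0.036 to 0.057 for MmugDNA.16459.1.S1_at and from -0.10 to 0.049 for TPI1, and in magnocellular layers from -0.57 to 0.10 for the ALDOC lead. MmugDNA.37076.1.S1_at ranged from -0.086 to 0.39 by duration and from -0.19 to 0.34 by class, where PKM ranged from -0.33 to 0.18. Between classes MmuSTS.342.1.S1_s_at ranged from -0.076 to 0.43, PFKP from -0.035 to 0.10, PKM from -0.14 to 0.091 and TPI1 from -0.042 to 0.16. The test of layer 1 against layer 2 could not be fitted within 1 animal. Over all probe sets, 365 calls with deprivation in parvocellular layers became 25 with scaling to the median, 15 without a trend, 28 without the block, 133 with layer number as the replicate block and 7 and 1 in single animals. Signals under 100 are near the background and limit the low probe sets of GPI and PKM.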
